A study of Mus musculus with 27 samples.

Results

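Mitochondrial biogenesis is directed by a small set of nuclear regulators, and 10 of them were followed here in mature 3T3-L1 adipocytes, which form when preadipocytes of this mouse line are made to differentiate in the dish. The members were chosen by name: Ppargc1a, Ppargc1b, Pprc1, Esrra, Esrrg, Nrf1, Gabpa, Tfam, Nrip1 and Prdm16. Each was read from the probe set annotated to its symbol alone, or from the brighter of several, and all 10 were found among the 18781 genes measured. The 27 arrays formed 9 groups of 3, namely untreated mature adipocytes at time 0 and adipocytes exposed to 1 µM rosiglitazone and harvested after 30 min, after 1 h, 2 h or 6 h, or after 12 h, 24 h, 36 h or 48 h. Rosiglitazone is a thiazolidinedione, used against insulin resistance, and a ligand of PPARγ, the receptor at the centre of fat cell differentiation. It was dissolved in DMSO, and the labels of the samples used here name no group given DMSO alone. Drug, vehicle, handling and time in culture therefore cannot be told apart. All cells had been differentiated with dexamethasone, insulin and isobutylmethylxanthine, then kept with insulin and finally in growth medium, so every group comes from 1 cell line without alleles or transgenes.

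Mitochondria carry their own small genome, but most mitochondrial proteins are encoded in the nucleus, so new mitochondria need both genomes to be expressed together. The coactivators of the PGC-1 family (Ppargc1a, Ppargc1b, Pprc1) bind no DNA themselves. They dock on factors such as the oestrogen-related receptors (Esrra, Esrrg) and the nuclear respiratory factors (Nrf1, Gabpa). These factors switch on genes of respiration and Tfam, whose protein packages mitochondrial DNA and takes part in its transcription. Nrip1 is a corepressor that holds down oxidative genes in fat, and Prdm16 is a cofactor that sets the brown fat programme.

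Values are log2 intensities as deposited, and changes are log2 differences ± SE with n = 3 arrays per group. Rises and falls are differences with an adjusted p below 0.05 in limma, a linear model fitted over all genes. The labels do not say whether replicates were separate cultures, so the p-values rest on differences among these arrays that could be technical alone. Array medians lay between 4.02 and 4.13, and the number of arrays limits the precision. The adipocyte markers Adipoq, Fabp4, Plin1, Cidec, Lpl, Lipe, Pparg, Retn, Cd36 and Slc2a4 averaged 10.1 to 12.23 in untreated cells. At 48 h, Cd36 was called higher (0.43, adjusted p = 0.000256), and Pparg and Retn lower (-0.30 and -0.20, adjusted p = 5.55e-05 and 0.00979). The background at 48 h was 12.6% higher and 11.4% lower. In untreated cells, of 5 macrophage markers, Adgre1, Ptprc, Itgam and Csf1r averaged 2.68 to 3.45 and Cd68 averaged 5.02. The summed linear intensity of these 5 was 71 to 77 at 48 h and 62 to 72 in untreated cells, and none of them was called at 48 h. In such bulk RNA, fewer cells of a type and less RNA per cell cannot be told apart. Of 9 preadipocyte and fibroblast markers, 7 fell and none rose at 48 h, and their summed linear intensity was 4354 to 4541 at 48 h against 6910 to 7136 in untreated cells. Cd34 (3.03 at 48 h, 3.04 untreated) was at the bottom of the range, and the part of these markers in the results below was not tested.

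Over the whole course 8 of the 10 regulators changed by the limma F-test, which called 40.5% of all genes, and Esrrg (adjusted p = 0.722) and Prdm16 (adjusted p = 0.0828) did not pass. Against untreated cells, none of the 10 was called by limma at 30 min, when 0.0479% of all genes were called higher and 0% lower, and 1 (Pprc1) had an unadjusted p below 0.05. The only member called higher at 1 h was Nrip1 (background 0.474% higher and 0.516% lower), and 3 were called at 2 h: Ppargc1b, Pprc1 and Nrip1 (background 3.04% and 2.87%). By 6 h 2 members had risen (background 8.39% and 8.18%) and by 12 h 5 (9.48% and 9.38%). The number higher was 6 after 24 h (10.1% of all genes), 5 after 36 h (10.9%) and 5 after 48 h (12.6%). The only member called lower at any time was Nrip1, at 24 h, 36 h and 48 h, when 10.5%, 10.5% and 11.4% of all genes were called lower. The median change of the 10 members was 0.078 at 2 h, 0.28 at 24 h and 0.26 at 48 h, beside medians of -0.004, -0.004 and 0.013 over all genes. All 8 comparisons share the untreated arrays. Centring each array on its median raised the background of higher genes to 15.3% at 6 h and 16.9% at 48 h and lowered that of lower genes to 4.7% and 8.74%.

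**Figure D1:**
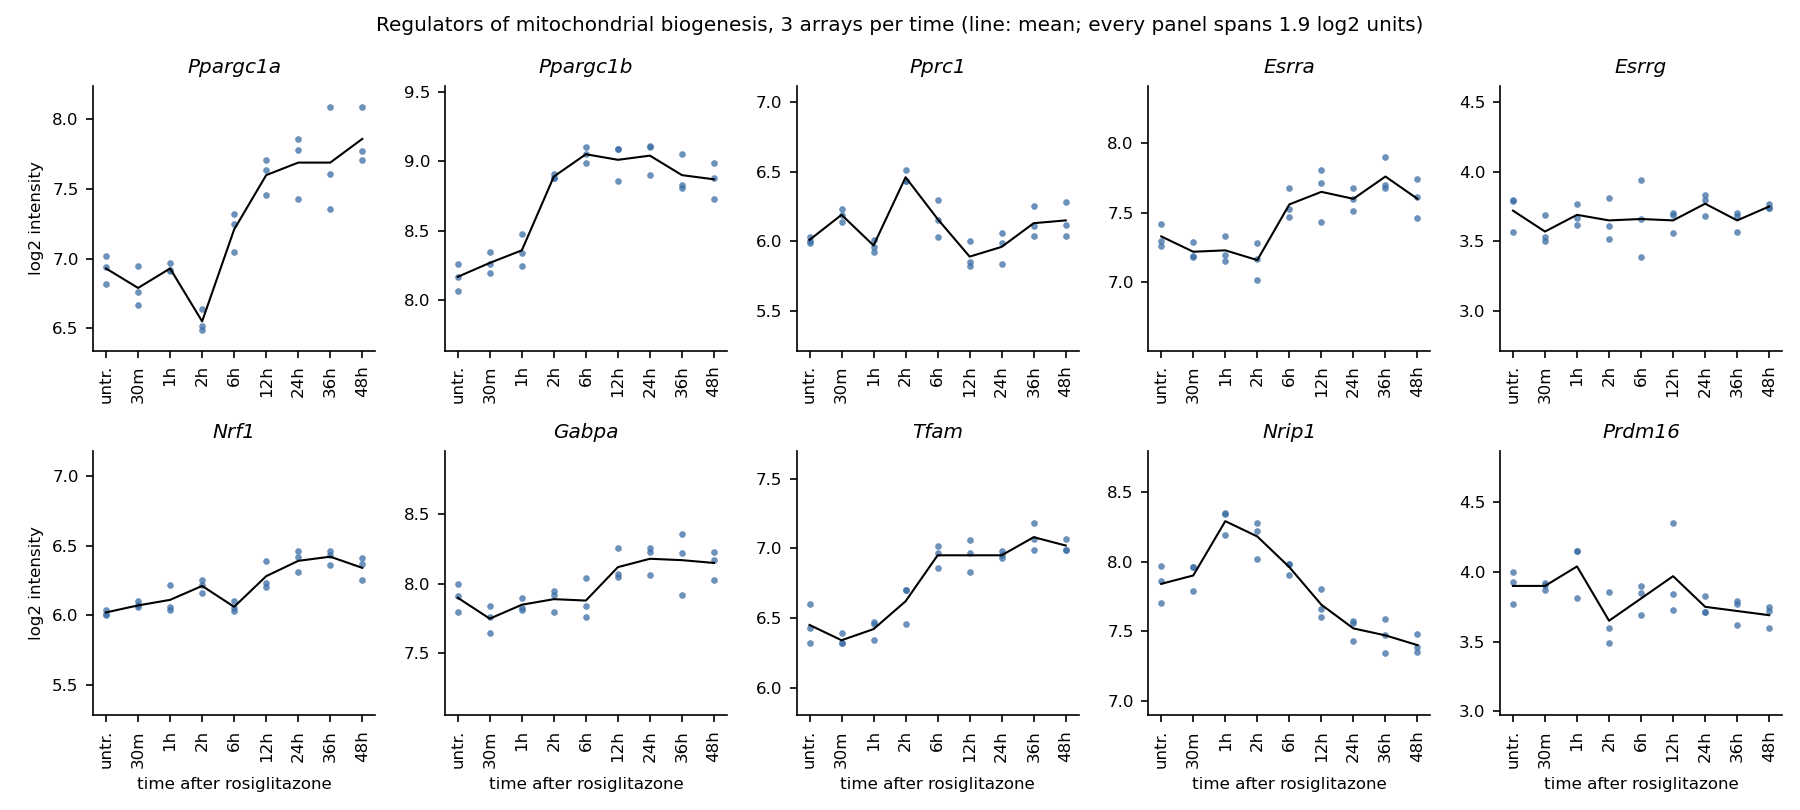
Log2 intensity of the 10 regulators (vertical axes, each spanning 1.9 units) on 27 arrays, by time after 1 µM rosiglitazone with untreated cells at the left (horizontal axes, times evenly spaced and not to scale). Points are single arrays and lines join the means of 3. Ppargc1a lies lowest at 2 h (6.49 to 6.64) and highest at the late times, Ppargc1b is already near its plateau at 2 h (8.88 to 8.91), and Nrip1 peaks at 1 h (8.19 to 8.35).

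Among the coactivators, Ppargc1a, best known as the inducible driver of mitochondrial biogenesis in brown fat and muscle, had the largest change of the 10 at 48 h. Its log2 intensity was 8.09, 7.77 and 7.71 at 48 h, against 6.94, 6.82 and 7.02 in untreated cells. All 3 arrays at 48 h lay above all untreated arrays, and the change was 0.93 ± 0.14, or 1.91-fold (adjusted p = 9.21e-06). The path to this level was not steady. At 2 h the arrays read 6.64, 6.49 and 6.52, below every untreated array. That difference of -0.38 ± 0.14 did not pass over all genes (adjusted p = 0.119), but did in a fit of those 6 arrays alone (adjusted p = 0.0153) or with array weights (-0.39, adjusted p = 0.0165).

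After 2 h, Ppargc1a had a higher mean at every time than at 2 h. It read 7.05, 7.25 and 7.32 at 6 h, each above every 2 h array, a rise of 0.66 ± 0.14 (adjusted p = 0.00219) that lost its call without replicate 3 of every group (0.59, adjusted p = 0.0751). It was higher again at 24 h, with 7.86, 7.78 and 7.43, by 0.48 ± 0.14 over 6 h (adjusted p = 0.0194). The call for 24 h minus 6 h ended without 6 h replicate 1 (0.40, adjusted p = 0.11), 24 h replicate 1 (0.40, adjusted p = 0.115) or 24 h replicate 2 (0.44, adjusted p = 0.0862). It also ended without replicate 1 or 2 of every group (0.32 and 0.46, adjusted p = 0.241 and 0.101). Against untreated cells the change was 0.28 ± 0.14 at 6 h (adjusted p = 0.176), which passed with only the 6 arrays compared (adjusted p = 0.0431), and 0.68 ± 0.14 at 12 h (adjusted p = 0.000667). It was 0.76 ± 0.14 at 24 h (adjusted p = 0.000141) and again 0.76 ± 0.14 at 36 h (adjusted p = 0.000139). The 36 h arrays were spread widely, at 7.36, 8.09 and 7.61, with an SD of 0.37. Between 24 h and 48 h no further change was called (0.17 ± 0.14, adjusted p = 0.607).

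A dimmer probe set also carried the Ppargc1a symbol alone, and it gave a like course. It read 4.23, 4.16 and 4.22 at 2 h, the lowest level of its course, and 5.42, 5.09 and 5.15 at 48 h, against 4.52, 4.43 and 4.59 in untreated cells. In a fit of all 28815 probe sets, it was higher at 12 h (0.67 ± 0.15, adjusted p = 0.00316), 24 h (0.81 ± 0.15, adjusted p = 0.000358), 36 h (0.598 ± 0.15, adjusted p = 0.00638) and 48 h (0.70 ± 0.15, adjusted p = 0.0014). At 2 h it differed by -0.31 ± 0.15, which missed the threshold (adjusted p = 0.325).

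Ppargc1b, the close relative of Ppargc1a that is abundant in oxidative and fat-storing tissues, was called earlier, and its mean was never below that of untreated cells. Its arrays read 8.88, 8.88 and 8.91 at 2 h, against 8.07, 8.17 and 8.26 in untreated cells. The groups were far apart, with a rise of 0.73 ± 0.085, or 1.65-fold (adjusted p = 2.29e-06). The level was 9.05, 9.10 and 8.99 at 6 h, a change of 0.88 ± 0.085 against untreated (adjusted p = 9.07e-08), and the rise was still 0.70 ± 0.085 at 48 h (adjusted p = 6.43e-07). The earlier difference, 0.19 ± 0.085 after 1 h, missed the threshold (adjusted p = 0.453). No change was called between later times: 0.15 for 6 h minus 2 h (adjusted p = 0.312), -0.01 for 24 h minus 6 h (adjusted p = 0.971) and -0.17 for 48 h minus 24 h (adjusted p = 0.355). The 95% interval of the difference between 48 h and 2 h ran from -0.20 to 0.15. For Ppargc1a the same difference was 1.31 ± 0.14 (adjusted p = 5.9e-08), with an interval from 1.03 to 1.59, although the contrast between the pair was not tested.

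Pprc1, the third family member, which is known as a growth-induced coactivator, had its highest mean at 2 h. Its arrays read 6.43, 6.51 and 6.43 at 2 h, against 6.00, 6.03 and 5.99 in untreated cells. The rise was 0.45 ± 0.076, or 1.37-fold (adjusted p = 0.000273). By 6 h the arrays read 6.30, 6.15 and 6.03, and the difference from 2 h, -0.30 ± 0.076, was called (adjusted p = 0.0123). It lost its call without 2 h replicate 2 (-0.27, adjusted p = 0.0653) or 6 h replicate 3 (-0.23, adjusted p = 0.0981), and without replicate 2 or 3 of every group (-0.27 and -0.245, adjusted p = 0.221 and 0.153). At 48 h Pprc1 was still lower than at 2 h (-0.31 ± 0.076, adjusted p = 0.00335), though not called so without replicate 2 of every group (-0.27, adjusted p = 0.119). It was not called against untreated at 6 h or later, with changes between -0.12 and 0.155. All its arrays at 6 h, 36 h and 48 h still lay above every untreated array. It was called against untreated at 6 h and 36 h after centring the arrays (0.24, adjusted p = 0.0224, and 0.21, adjusted p = 0.0418), and was lower at 12 h and 24 h with the 30 min arrays as the baseline (-0.299, adjusted p = 0.00525, and -0.22, adjusted p = 0.0314).

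**Figure D2:**
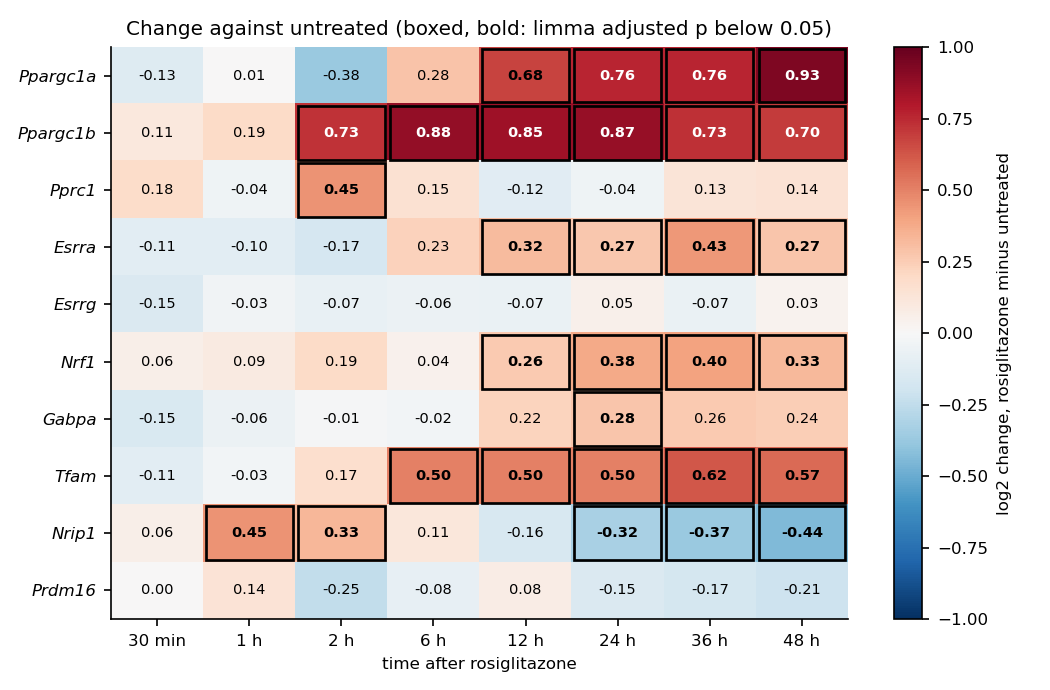
Log2 change of each regulator (rows) at each time after rosiglitazone minus untreated (columns), printed in the cells and shown by colour from -1 to 1. Boxed bold cells passed a limma adjusted p of 0.05: Ppargc1b from 2 h (0.73), Tfam from 6 h (0.50), Ppargc1a, Esrra and Nrf1 from 12 h, Gabpa at 24 h (0.28), Pprc1 at 2 h (0.45), and Nrip1 higher at 1 h and 2 h and lower from 24 h.

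Of the DNA-binding partners, Esrra encodes an orphan nuclear receptor that PGC-1 coactivators work through on genes of respiration and fat oxidation. It was modestly higher at the late times. Its arrays read 7.90, 7.68 and 7.70 at 36 h, against 7.30, 7.26 and 7.42 in untreated cells, with no overlap. The rise was 0.43 ± 0.094, or 1.35-fold (adjusted p = 0.00123). It was also called at 12 h (0.32 ± 0.094, adjusted p = 0.0172), 24 h (0.27 ± 0.094, adjusted p = 0.0432) and 48 h (0.27 ± 0.094, adjusted p = 0.035). These 3 calls rested on single arrays and settings, while the call at 36 h held in every alternative run. At 12 h the call ended without untreated replicate 1 or 2 (0.31 and 0.29, adjusted p = 0.0545 and 0.0769) or without 12 h replicate 2 or 3 (0.24 and 0.29, adjusted p = 0.12 and 0.0664). At 24 h it ended without untreated replicate 1 or 2 (0.26 and 0.24, adjusted p = 0.108 and 0.152), 24 h replicate 2 or 3 (0.27 and 0.23, adjusted p = 0.0974 and 0.152) and with a further quantile normalization (0.26, adjusted p = 0.0556).

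At 48 h the Esrra call ended without untreated replicate 1 or 2 (0.26 and 0.24, adjusted p = 0.0905 and 0.128), 48 h replicate 1 or 2 (0.20 and 0.27, adjusted p = 0.178 and 0.0794) and with a further quantile normalization (0.24, adjusted p = 0.0715). That call also ended with only the 6 arrays compared (0.27, adjusted p = 0.0533). Esrra, like Ppargc1a, had its lowest mean at 2 h, with 7.17, 7.02 and 7.28. From there to 6 h (7.53, 7.68 and 7.47) it rose by 0.41 ± 0.094 (adjusted p = 0.00604), a call that ended without 2 h replicate 2 (0.34, adjusted p = 0.0532) or replicate 2 of every group (0.28, adjusted p = 0.239).

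Esrrg, the related receptor that is prominent in heart and brown fat, was dim on every array. Its 27 values ran from 3.39 to 3.94, under every array median. No change was called, and at 48 h, with 3.74, 3.74 and 3.77 against 3.57, 3.79 and 3.8 in untreated cells, the difference was 0.033 with a 95% interval from -0.17 to 0.24. Signals this close to the floor of an array give compressed changes, so the interval bounds the signal of the probe set and not the transcript.

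Nrf1 encodes a nuclear respiratory factor that binds promoters of respiratory chain genes. It read 6.46, 6.43 and 6.36 at 36 h, against 6.00, 6.01 and 6.04 in untreated cells. The rise of 0.40 ± 0.064, or 1.32-fold, was called (adjusted p = 3.55e-05), as were those at 12 h (0.26 ± 0.064, adjusted p = 0.00477), 24 h (0.38 ± 0.064, adjusted p = 7.92e-05) and 48 h (0.33 ± 0.064, adjusted p = 0.000401). The call at 12 h ended without replicate 1, 2 or 3 of every group (0.27, 0.29 and 0.21, with adjusted p = 0.0556, 0.0553 and 0.0503). The untreated arrays differed little, with an SD of 0.025. Nrf1 was not higher at 6 h, when its arrays read 6.03, 6.05 and 6.10, and between 6 h and 24 h it rose by 0.34 ± 0.064 (adjusted p = 0.000742), a call lost without replicate 2 of every group (0.298, adjusted p = 0.0802). A difference of 0.19 at 2 h missed the threshold (adjusted p = 0.0834), but passed with array weights (adjusted p = 0.033) and among genes above the median mean (adjusted p = 0.037).

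Gabpa encodes the DNA-binding subunit of the other nuclear respiratory factor, an ETS family protein. It read 8.26, 8.23 and 8.06 at 24 h, against 8.0, 7.80 and 7.91 in untreated cells. The groups did not overlap, but the gap was narrow and the change of 0.28 ± 0.096 was called only at that time (adjusted p = 0.0382). The call ended without untreated replicate 2 or 3 (0.23 and 0.29, adjusted p = 0.173 and 0.0794), 24 h replicate 1 or 2 (0.24 and 0.26, adjusted p = 0.147 and 0.119) and with a further quantile normalization (0.26, adjusted p = 0.0557). The changes at 12 h (0.22, adjusted p = 0.12), 36 h (0.26, adjusted p = 0.0509) and 48 h (0.24, adjusted p = 0.07) missed the threshold. At 36 h replicate 1 stood at 7.92 beside 8.36 and 8.22, and without it the change was 0.39 (adjusted p = 0.00325). It was also called at 36 h without untreated replicate 1 (0.31, adjusted p = 0.0439), and at 48 h without 48 h replicate 3 (0.299, adjusted p = 0.0477). Centring the arrays brought calls at 12 h, 36 h and 48 h (0.28, 0.34 and 0.29, with adjusted p = 0.0405, 0.00929 and 0.0293). So did array weights (0.24, 0.32 and 0.25, with adjusted p = 0.0493, 0.00121 and 0.0268). The 30 min arrays as the baseline did too (0.37, 0.42 and 0.39, with adjusted p = 0.00598, 0.00204 and 0.00294). Among genes above the median mean, 36 h and 48 h were called (adjusted p = 0.0287 and 0.0419). With a trended and robust variance, 36 h was called (adjusted p = 0.0352). The step from 6 h to 24 h was 0.31 ± 0.096 (adjusted p = 0.0381), and it lost its call without either of replicates 1 and 2 of 6 h (adjusted p = 0.183 and 0.125) or of 24 h (adjusted p = 0.148 and 0.128).

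Tfam, the effector that acts inside mitochondria, rose early and then held its level. Its arrays read 6.86, 7.02 and 6.97 at 6 h, against 6.43, 6.32 and 6.60 in untreated cells. All 6 h arrays lay above all untreated ones, a rise of 0.50 ± 0.077, or 1.42-fold (adjusted p = 4.56e-05). It was 0.50 at 12 h and at 24 h, 0.62 ± 0.077 at 36 h (adjusted p = 1.02e-06) and finally 0.57 ± 0.077 at 48 h (adjusted p = 3.89e-06). The 48 h arrays read 6.99, 6.99 and 7.07. Between 6 h and 24 h no change was called (-0.0002, 95% interval from -0.16 to 0.16). At 2 h the arrays read 6.70, 6.70 and 6.46 and overlapped the untreated ones (0.17, adjusted p = 0.262). The rise from 2 h to 6 h, 0.33 ± 0.077, was called (adjusted p = 0.00602), but not without 2 h replicate 3 (0.26, adjusted p = 0.056), nor without replicate 2 or 3 of every group (0.34 and 0.24, adjusted p = 0.0835 and 0.147).

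**Figure D3:**
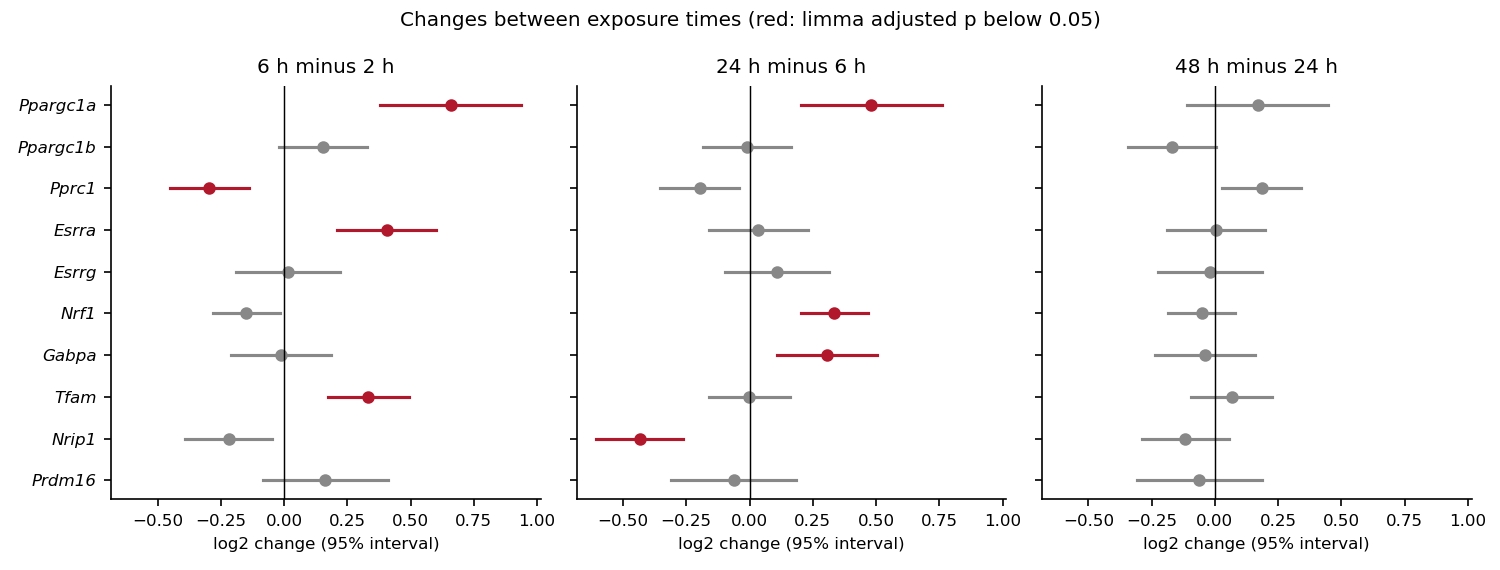
Log2 change of each regulator (rows) between exposure times, on 1 common horizontal scale: 6 h minus 2 h (left), 24 h minus 6 h (middle) and 48 h minus 24 h (right). Dots are limma estimates from 3 arrays per time, lines are 95% intervals, and red marks an adjusted p below 0.05. Ppargc1a rose in the left and middle panels (0.66 and 0.48), Nrip1 fell in the middle one (-0.43), and no member was called in the right one.

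The steps between exposure times do not use the means of the untreated arrays. From 2 h to 6 h, Ppargc1a, Esrra and Tfam rose and Pprc1 fell, where 4.27% of all genes were called higher and 4.89% lower. From 6 h to 24 h, Ppargc1a, Nrf1 and Gabpa rose and Nrip1 fell (background 5.51% higher and 6.02% lower). Over the span from 2 h to 48 h, Ppargc1a, Esrra and Tfam rose and Pprc1 and Nrip1 fell (background 12.2% higher and 11.5% lower). From 24 h to 48 h, 0 members were called by limma, at a background of 0.713% and 0.745%. In that step 1 member, Pprc1, had an unadjusted p below 0.05 (0.18, adjusted p = 0.238). The contrast of 24 h and 48 h with 12 h and 36 h, meant for alternation between harvests 12 h apart, also called 0 members (background 1.05% and 1.24%). It had 0 members at an unadjusted p below 0.05 and changes from -0.13 to 0.13. A steady trend over these times also enters this contrast, so it cannot tell alternation from such a trend.

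Nrip1, the corepressor, was the member that moved in both directions. Its arrays read 8.19, 8.35 and 8.34 at 1 h, against 7.86, 7.70 and 7.97 in untreated cells, so the groups did not overlap. The rise was 0.45 ± 0.084, or 1.37-fold (adjusted p = 0.00454), before any other member had been called. It kept its call without any single array, but not without replicate 2 (0.35, adjusted p = 0.293) or replicate 3 (0.49, adjusted p = 0.0674) of every group. At 2 h the rise was 0.33 ± 0.084 (adjusted p = 0.0157). It lost its call without untreated replicate 2 (0.26, adjusted p = 0.126), 2 h replicate 2 (0.31, adjusted p = 0.0763) or 2 h replicate 3 (0.28, adjusted p = 0.113). The call also ended with the 30 min arrays as the baseline (0.27, adjusted p = 0.0582) and with only the 6 arrays compared (0.33, adjusted p = 0.0588).

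The level of Nrip1 then dropped below that of untreated cells. At 48 h its arrays read 7.48, 7.39 and 7.35, each under every untreated array, and the change was -0.44 ± 0.084, or 1.36-fold lower (adjusted p = 0.000284). The fall was also called at 24 h (-0.32 ± 0.084, adjusted p = 0.00605), and after 36 h (-0.37 ± 0.084, adjusted p = 0.00161). The 24 h call ended without untreated replicate 3 (-0.26, adjusted p = 0.0529) and after centring the arrays (-0.24, adjusted p = 0.0549). Without replicate 3 of every group, both calls ended, with -0.21 at 24 h (adjusted p = 0.192) and a value of -0.246 at 36 h (adjusted p = 0.122). At 24 h the arrays read 7.56, 7.57 and 7.43, and at 36 h 7.47, 7.59 and 7.34. The difference of 48 h from 2 h was -0.77 ± 0.084 for Nrip1 (adjusted p = 1.26e-07) and 1.31 for Ppargc1a.

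Prdm16 was dim, like Esrrg, with 27 values from 3.49 to 4.35. Its arrays read 3.72, 3.60 and 3.75 at 48 h, against 3.93, 3.77 and 4.0 in untreated cells. The difference of -0.21 ± 0.12 was not called (adjusted p = 0.231, 95% interval from -0.46 to 0.037). A still dimmer probe set of Prdm16 gave -0.016 ± 0.10 at 48 h (adjusted p = 0.944). Replicate 2 at 12 h, at 4.35, stood above the other two of its group, at 3.73 and 3.84.

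Promoter sequence is shown for the 3 members that rose together at 12 h, 24 h, 36 h and 48 h and whose RefSeq promoter window holds a textbook site of this circuit. Windows of 250 bases before to 50 after a start of transcription (RefSeq, GRCm38.p6) were searched for 9 members, 14 windows in all, on both strands. The motifs were picked with the members' values known. Each line gives 5′ to 3′ on the gene's strand, with the matched letters in capitals. For each gene 1 window is shown, which need not be that of its main start. The Tfam window (chr10:71237995-71238294, minus strand) holds CCGGAAGT, the core bound by Gabpa and other ETS factors, ending 40 bases before the start.
Tfam: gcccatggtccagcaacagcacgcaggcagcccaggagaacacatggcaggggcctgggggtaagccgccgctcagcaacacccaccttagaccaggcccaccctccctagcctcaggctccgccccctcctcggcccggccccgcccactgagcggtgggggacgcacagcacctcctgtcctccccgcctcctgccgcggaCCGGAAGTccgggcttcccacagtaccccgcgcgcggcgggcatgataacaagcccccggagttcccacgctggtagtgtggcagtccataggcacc
The Esrra window (chr19:6921759-6922058, minus strand) holds GCATGCGC, the core bound by Nrf1, ending 27 bases before the start.
Esrra: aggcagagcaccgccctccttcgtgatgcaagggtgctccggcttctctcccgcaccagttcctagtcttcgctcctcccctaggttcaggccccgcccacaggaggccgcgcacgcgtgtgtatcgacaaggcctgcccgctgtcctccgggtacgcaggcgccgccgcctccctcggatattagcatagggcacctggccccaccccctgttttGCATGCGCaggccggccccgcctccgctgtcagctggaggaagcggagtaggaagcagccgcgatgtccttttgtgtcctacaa
The Ppargc1a window shown (chr5:51567676-51567975, minus strand) holds TGACGT on its opposite strand, the core of the cyclic AMP response element, ending 45 bases before that start.
Ppargc1a: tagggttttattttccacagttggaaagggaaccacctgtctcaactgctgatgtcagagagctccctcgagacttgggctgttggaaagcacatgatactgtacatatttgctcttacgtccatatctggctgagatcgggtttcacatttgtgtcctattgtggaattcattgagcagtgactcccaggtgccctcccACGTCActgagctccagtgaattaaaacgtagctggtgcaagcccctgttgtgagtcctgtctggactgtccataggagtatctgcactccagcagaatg
Among all 32851 windows of this kind, 3.89% held CCGGAAGT, 2.71% held GCATGCGC and 7.51% held TGACGT. Each of these 3 motifs was in 1 of the 14 windows of the members, too few to set the members apart from all windows. The element of oestrogen-related receptors, TCAAGGTCA, was found in 0.423% of all windows, and the PPAR element, a direct repeat of AGGTCA with any 1 base between, in 0.0396%, and these letters were in none of the 14 windows of the members. The arrays measure no binding, so a match is a description of the sequence.

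Other genes of the pathway were taken from lists written from general knowledge. Their counts are to be read against all genes, of which 3.04% were called higher after 2 h, 8.39% after 6 h and 9.48% after 12 h, then 10.1% (24 h), 10.9% (36 h) and 12.6% (48 h). After centring the arrays these 6 shares were 3.34%, 15.3%, 13.7%, 16.6%, 18.6% and 16.9%. In the lists of mitochondrial DNA expression, respiratory chain, citric acid cycle and brown fat genes, no gene was called lower against untreated at any of the 8 times. Of 16 measured genes that replicate, transcribe or process mitochondrial DNA and its RNA, 5 rose by 6 h (31.2%) and 6 by 12 h (37.5%). The count was 8 after 24 h, 6 after 36 h and 8 after 48 h (50%), with a median change of 0.25 at 48 h beside 0.013 over all genes. After centring it was 11 at 36 h, and a further quantile normalization gave 3 at 6 h. Top1mt, the mitochondrial topoisomerase, averaged 7.43 ± 0.05 at 48 h and 6.95 ± 0.05 in untreated cells (SD, n = 3 each), a rise of 0.48 ± 0.067 (adjusted p = 4.56e-06). The mitochondrial exonuclease Mgme1 rose by 0.47 ± 0.076 (adjusted p = 3.82e-05) and the thymidine kinase Tk2 by 0.38 ± 0.077 (adjusted p = 0.00057). The genes encoded on mitochondrial DNA itself were not analysed here.

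Of 27 respiratory chain subunits measured, 3 rose by 6 h and 3 by 12 h, and these 11.1% lay near the shares of all genes. The count was 8 after 24 h (29.6%), 11 after 36 h (40.7%) and 5 after 48 h (18.5%, beside 12.6% of all genes), when the median change was 0.085. The complex II subunit Sdhd rose by 0.37 ± 0.061 at 48 h (adjusted p = 4.55e-05), and the complex I subunits Ndufa8 and Ndufv1 by 0.29 ± 0.062 and 0.21 ± 0.060 (adjusted p = 0.000961 and 0.0117). Centring the arrays raised the counts to 17 at 24 h (63%, beside 16.6% of all genes), 18 at 36 h (66.7%, beside 18.6%) and 8 at 48 h (29.6%, beside 16.9%). A further quantile normalization gave 1 at 6 h, 5 at 24 h and 9 at 36 h. Of 11 citric acid cycle genes, 1 rose by 2 h, 3 by 6 h (27.3%) and 4 by 12 h (36.4%, or 7 after centring), then 7 after 24 h (63.6%, beside 10.1% of all genes) and 6 after 48 h (54.5%, beside 12.6%; median 0.16). With quantile normalization the citric acid cycle count was 2 at 6 h, 4 at 12 h, 5 at 24 h (45.5%, beside 10.3% of all genes) and 6 at 48 h. Idh3a, the catalytic subunit of isocitrate dehydrogenase, averaged 10.98 ± 0.08 at 48 h and 10.24 ± 0.03 in untreated cells (SD, n = 3 each), a rise of 0.73 ± 0.074 (adjusted p = 3.92e-08). Suclg1, of succinyl-CoA ligase, and the citrate synthase gene Cs rose by 0.29 ± 0.063 and 0.24 ± 0.059 (adjusted p = 0.00137 and 0.00385).

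Of 16 genes of mitochondrial fatty acid oxidation, 6 rose by 6 h (37.5%, beside 8.39% of all genes) and 13 by 12 h (81.2%, beside 9.48%). The count was 13 after 24 h (beside 10.1%) and 12 after 48 h (75%, beside 12.6%), with 1 lower there, when 11.4% of all genes were lower (median 0.33). Quantile normalization gave 5, 10, 11 and 12 higher at 6 h, 12 h, 24 h and 48 h. Shares of all genes there were 8.34%, 9.2%, 10.3% and 12.1%. Centring gave 9, 13, 13 and 13 at these times. The thiolase Acaa2 rose by 0.54 ± 0.067 at 48 h (adjusted p = 8.97e-07), Hadhb, of the trifunctional protein, by 0.77 ± 0.073 (adjusted p = 1.44e-08), and Slc25a20, which carries acylcarnitines across the inner membrane, by 0.81 ± 0.11 (adjusted p = 2.8e-06). Cpt1a, the gate for entry of fatty acids, was the member that fell (-0.38 ± 0.13, adjusted p = 0.0279). Of 11 genes typical of brown fat, 1 rose by 6 h (9.09%, near the 8.39% of all genes) and 2 by 12 h (18.2%, beside 9.48%). The count was 6 after 24 h (54.5%, beside 10.1%), 7 after 36 h and 7 after 48 h (63.6%, beside 12.6%). Cidea, a lipid droplet protein, averaged 7.56 ± 0.14 at 48 h and 5.07 ± 0.17 in untreated cells (SD, n = 3 each), a rise of 2.49 ± 0.12 (adjusted p = 2.55e-13). The cytochrome oxidase subunits Cox7a1 and Cox8b rose by 1.40 ± 0.089 and 0.83 ± 0.081 (adjusted p = 1.41e-11 and 2.35e-08). The brown fat markers Ucp1 (2.78 at 48 h and 2.78 untreated) and Dio2 (3.03 at 48 h and 2.92 untreated) were near the floor, as Prdm16 and Esrrg were dim.

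**Figure D4:**
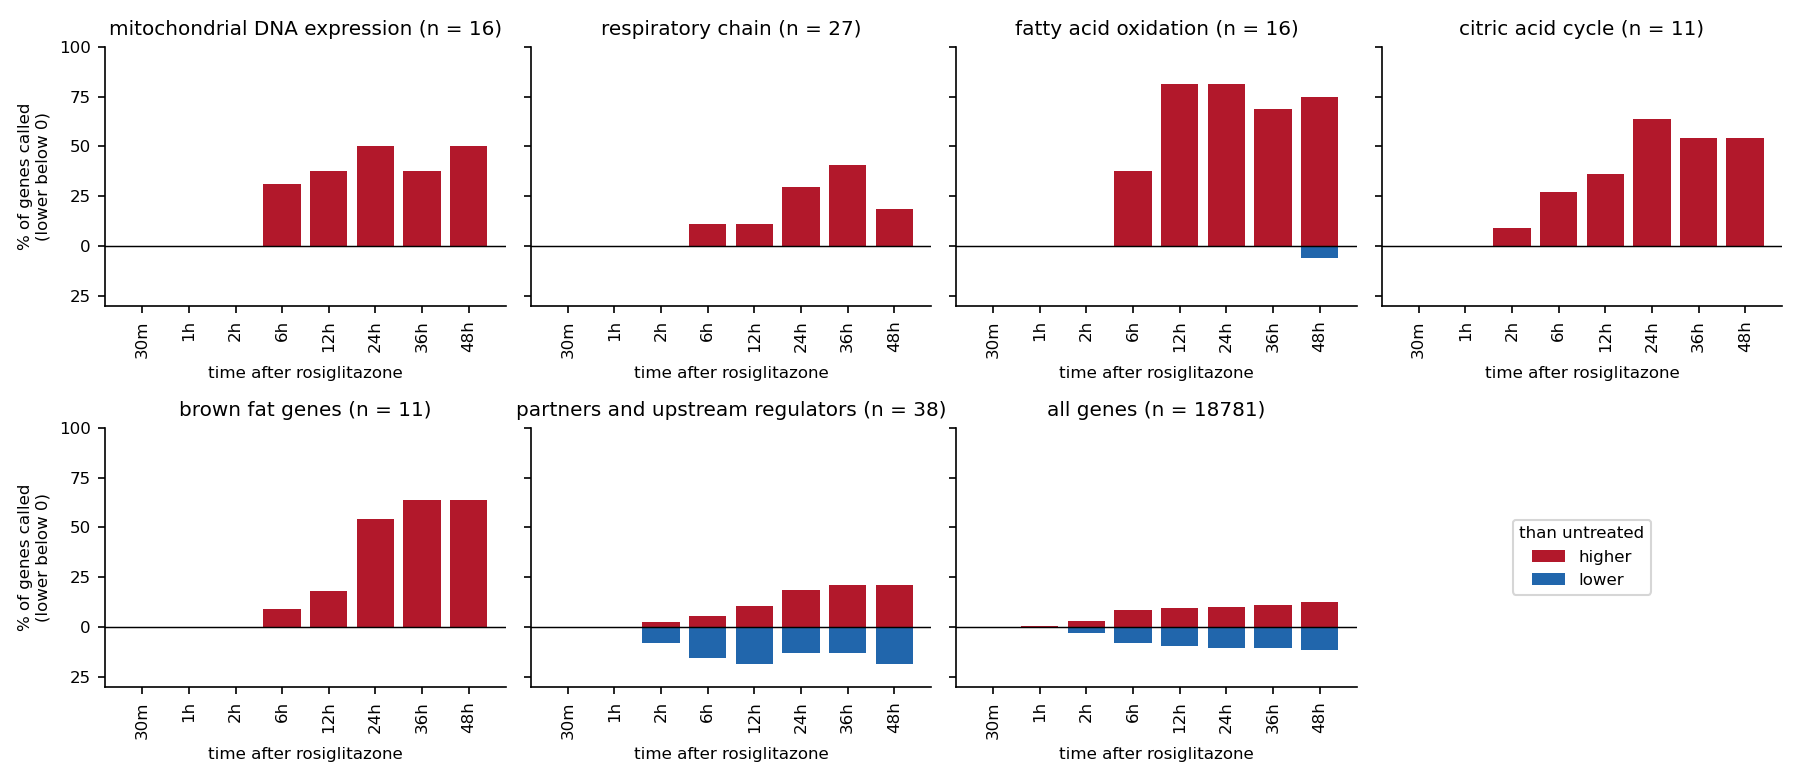
Share of the genes of each list (vertical axis, percent of measured genes) that passed a limma adjusted p of 0.05 at each time after rosiglitazone against untreated (horizontal axis), with higher genes above 0 and lower genes below it. The panels hold 16, 27, 16, 11, 11 and 38 listed genes and, last, all 18781 genes, of which 12.6% were higher and 11.4% lower at 48 h. Among called genes, the 5 mitochondrial and brown fat lists hold mainly higher ones, and the list of partners holds both directions.

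The partners and upstream regulators of the coactivators went both ways. Of 38 measured, 1 rose and 3 fell at 2 h (2.63% and 7.89%, beside 3.04% and 2.87% of all genes), and 2 rose and 6 fell at 6 h (5.26% and 15.8%, beside 8.39% and 8.18%). At 24 h 7 rose and 5 fell, where 10.1% and 10.5% of all genes did, and at 48 h 8 rose and 7 fell (21.1% and 18.4%, beside 12.6% and 11.4%), with a median change of -0.004. The share higher at 2 h and the share lower at 24 h lay near those of all genes. After centring the arrays the counts were 9 higher and 3 lower at 6 h (all genes 15.3% and 4.7%), and 11 higher and 4 lower at 48 h (all genes 16.9% and 8.74%). A further quantile normalization gave 2 higher and 8 lower at 6 h (all genes 8.34% and 7.66%), and 8 higher and 9 lower at 48 h (all genes 12.1% and 11.6%). Centring thus shifted the balance of this list to higher genes, as it did for all genes, and quantile normalization did not. The mitochondrial deacetylase Sirt3 averaged 7.49 ± 0.09 at 48 h and 6.81 ± 0.07 in untreated cells (SD, n = 3 each), a rise of 0.68 ± 0.076 (adjusted p = 1.69e-07). Gabpb1, the partner subunit of Gabpa, rose by 0.59 ± 0.085 (adjusted p = 6.99e-06), and Crtc2, a coactivator of CREB, by 0.42 ± 0.065 (adjusted p = 1.89e-05). Kat2a, an acetyltransferase that restrains Ppargc1a protein, changed by -0.39 ± 0.069 (adjusted p = 0.000104), and Ppard, the PPARδ receptor, by -0.40 ± 0.073 (adjusted p = 0.00015). Pparg, the receptor of the drug, changed by -0.30 ± 0.049 (adjusted p = 5.55e-05).

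For each of the 8 regulators that changed, the genes with the most similar course were sought by the Pearson correlation of log2 intensity over the 27 arrays, which share the time course and its normalisation, as a description without a test. For Ppargc1a they were Mob3b (0.944), Tbc1d31 (0.943) and the kinase Map3k1 (0.941). For Ppargc1b they were the sulfotransferase Chst11 (0.972), the glycolytic regulator Pfkfb3 (0.955) and the transcriptional cofactor Tle3 (0.953). Pprc1 had weaker neighbours, led by the ribosome assembly factor Pwp2 (0.814) and the deubiquitinase Usp36 (0.786), then Chst15 (0.731). Esrra was followed by Ubac2 (0.914), Rab3a (0.899) and the mitochondrial ribosomal gene Mrpl19 (0.892), and Nrf1 by Sbsn (0.901), Pkp2 (0.89) and Gosr1 (0.884). Gabpa was nearest to the mitochondrial translation factor Guf1 (0.919), AW549877 (0.915) and the phosphodiesterase Pde3b (0.91). Tfam was nearest to Arxes1 (0.94), whose probes may also read Arxes2, to the cytochrome oxidase assembly factor Coa5 (0.935) and to Nkiras1 (0.934). Nrip1 was nearest to Osgin1 (0.923), the Wnt receptor Fzd4 (0.919) and the splicing factor Srsf6 (0.918).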

How the data were processed

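RNA of 27 samples was hybridised to Affymetrix Mouse Gene 1.1 ST arrays. The authors deposited log2 intensities of probe sets, and per the submitters' processing notes the authors used Partek and RMA, without versions or roles. The sources used here do not give a genome build. Of 28815 probe sets, 21153 carried 1 symbol in the platform annotation, and the brightest on average stood for each of 18781 genes. Dim genes stayed in the fit. The model of group means used limma 3.58.1 under R 4.3.3 (lmFit, eBayes, no covariates, 18 residual degrees of freedom), two-sided, with Benjamini-Hochberg adjustment over all genes of a comparison. Intervals are unadjusted 95% limits. All 10 members are named, with up to 3 genes per list and direction of smallest p at 48 h, 3 neighbours per changed member, and marker genes. The members and lists were chosen with earlier results of these data known. The model was also run on simulated data with independent noise and no effect shared within an array or replicate. That run says nothing about such effects in these arrays. Sequences were read from RefSeq (GRCm38.p6), and tables and plots were made with Python 3.11.15, pandas 2.3.3, numpy 2.4.6 and matplotlib 3.10.9. Alternatives covered scaling, probe sets, variance models, array weights, baseline, threshold, filtering, the replicate block and left-out arrays. The fit of single probe sets and the list counts under other scalings were added after the data were seen.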

Additional observations from a re-analysis of the deposited data

How the results depend on the processing

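Among the alternatives run for the members, no called change reversed. The changes of Ppargc1a from 12 h, Ppargc1b from 2 h, Tfam from 6 h, Nrf1 from 24 h, Pprc1 at 2 h, Esrra at 36 h and Nrip1 at 48 h were called in every one of them. The number of members called at 2 h was 3, and 5 with array weights. At 6 h it was 2, but 4 after centring the arrays and 4 with the 30 min arrays as the baseline. For 24 h minus 6 h it was 4, and 2 at an adjusted p below 0.01. Without replicate 1, 2 or 3 of every group, or without single arrays, the number called was 0 to 1 at 1 h, 2 to 3 at 2 h, 2 at 6 h, 3 to 5 at 12 h, 4 to 6 at 24 h, 5 to 7 at 36 h, 5 to 7 at 48 h, 1 to 4 for 6 h minus 2 h, 1 to 5 for 24 h minus 6 h, 4 to 6 for 48 h minus 2 h and 7 to 9 over the course. Leaving out arrays also leaves fewer samples in the model. The replicate numbers gave no sign of pairing treated with untreated arrays. Correlations of deviations between same-numbered treated and untreated arrays ran from -0.445 to 0.105 over 24 pairs. The 36 h arrays gave -0.445, -0.386 and -0.261. Same-numbered arrays of different treated groups were not compared. With the replicate number as a block, 5 members were called at 24 h and 5 at 48 h, where Esrra (adjusted p = 0.0647 and 0.0532) and, at 24 h, Gabpa (adjusted p = 0.0579) missed the threshold, and 3 for 24 h minus 6 h, without Gabpa. Esrrg and Prdm16 dropped out among genes above the median mean of 4.76. With 3 arrays a group, small changes of dim probe sets could not be told from noise.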
